A study of Mus musculus with 24 samples.

Results

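Interferon-stimulated genes were followed across 7 mouse cell lines profiled on 24 one-colour Agilent expression arrays. The set holds 47 listed genes, chosen by name as known interferon pathway members with earlier results of these data in view: 4 interferon receptor chains, 4 transcription factors, 2 feedback inhibitors, and 37 sensors, ubiquitin-like enzymes, antiviral effectors and GTPases that interferon is known to induce. Through the RefSeq transcript attached to each probe, 43 of the 47 were matched by 65 probes, out of 22911 genes on the array that carry a symbol. No probe was matched to Mx1, Mx2, Ifitm2 or Tgtp1.

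Type I interferons bind the receptor made of Ifnar1 and Ifnar2, and interferon gamma binds Ifngr1 and Ifngr2. Type I signalling assembles a complex that contains Stat2 and Irf9 and binds the interferon-stimulated response element (ISRE) in promoters, whereas interferon gamma acts mainly on the gamma-activated site (GAS). The induced genes include sensors of viral RNA, inhibitors of viral replication, and regulators such as Irf7 and Usp18, which amplify or dampen the response. In tumour cells a low, constant level of these genes can be kept without added interferon.

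The melanoma lines derive from B16F1 cells that carry GFP, a green fluorescent protein. M is the parental line (3 arrays), D a line recovered from a mouse whose tumour cells had lain dormant after vaccination with irradiated cells overexpressing GM-CSF (4 arrays), and DB#1 (4 arrays), DB#2 (3 arrays) and DB#3 (3 arrays) are second-generation lines taken from a brain site. Each is 1 line of the named origin, so a difference between lines is a difference between those lines and not between classes of animals. Melanoma cells were cultured in DMEM with serum and rinsed in PBS, and no interferon treatment is named for any sample. M0 (4 arrays) and J365 (3 arrays) are labelled as myeloid cells. Nothing in the labels says how they were cultured or what separates them beyond the name. All their titles carry the tag p20, which the labels do not explain. The study describes its myeloid leukemia cells as a parental and a dormant line, but no label ties these to M0 and J365. In the titles 1 array of each has no replicate number and is called replicate 4 here. Nor is any array said to come from a separate culture, so p-values measure only the spread between these samples, which may be technical.

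All levels below are log2 fluorescence less the 75th percentile of the array, so a value of 0 is the level of that percentile, and a difference of 1 is a 2-fold change. Levels are compared between lines for 1 probe at a time and never between genes. A gene is read on an array where the scanner software calls its spot well above background. The 12 melanocyte markers were read on all 17 melanoma arrays, with mean levels of 5.82 to 6.87 against -4.55 to -3.67 in myeloid arrays, and the 12 haematopoietic markers averaged 2.30 to 3.25 in myeloid arrays and -4.44 to -2.37 in melanoma arrays. Of the D arrays, 2 stood apart. D replicate 1 had the fewest probes read (43.7%) and the highest negative-control signal (36.1 against 23.6 to 27.7 on the other arrays), and D replicate 3 had 89.9% of probes read where the other arrays had 43.7% to 53.9%. D replicate 3 also gave the highest melanoma value for each of the haematopoietic, macrophage and microglia, lymphocyte, brain cell, endothelial and fibroblast marker lists, with 10 of 12 haematopoietic and 10 of 10 brain markers read. Their part in the results was not tested, and results on D are given with and without them. In bulk RNA fewer expressing cells and less RNA per cell cannot be told apart.

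RefSeq promoter windows (GRCm38.p6, 250 bases before to 50 after the transcript start) were available for 38 of the 47 genes and were searched on both strands for the core of the ISRE, GAAA and GAAA with any 2 bases between them, and for TTCNNNGAA, the GAS. An ISRE match on the other strand reads TTTC, any 2 bases, TTTC. The ISRE letters occurred in 20 of 38 members (52.6%), against 3.99% of all 27025 genes with a window (3.44% of all 32851 windows). The GAS letters occurred in 14 of 38 members (36.8%), against 9.55% of all genes (8.3% of windows). Stretches of 150 bases directly upstream of the start are shown for members with a large difference between lines or with several matches, 5′ to 3′ on the gene's strand, with the ISRE letters (GAS letters for Irf1) in capitals. Isg15 (chr4:156200819-156200968, minus strand) has 3 overlapping matches 78 to 57 bases upstream. Igtp (chr11:58199406-58199555, plus strand), Trim30a (chr7:104465194-104465343, minus strand) and Ifit3 (chr19:34583379-34583528, plus strand) have 1 each. Irgm1 (chr11:48871421-48871570, minus strand), Bst2 (chr8:71537473-71537622, minus strand) and Gbp3 (chr3:142559894-142560043, plus strand) have 2 overlapping matches each. Irf1 (chr11:53769864-53770013, plus strand) has 1 GAS match and is shown as a member that was not called between the melanoma lines.
Isg15: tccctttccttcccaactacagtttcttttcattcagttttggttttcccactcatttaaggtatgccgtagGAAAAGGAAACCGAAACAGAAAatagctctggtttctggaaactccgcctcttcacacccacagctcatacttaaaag
Igtp: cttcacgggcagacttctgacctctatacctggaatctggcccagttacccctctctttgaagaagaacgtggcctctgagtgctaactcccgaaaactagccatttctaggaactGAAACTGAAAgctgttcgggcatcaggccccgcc
Trim30a: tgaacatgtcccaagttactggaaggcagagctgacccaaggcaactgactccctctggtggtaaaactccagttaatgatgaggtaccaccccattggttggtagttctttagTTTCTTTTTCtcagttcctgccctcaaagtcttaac
Ifit3: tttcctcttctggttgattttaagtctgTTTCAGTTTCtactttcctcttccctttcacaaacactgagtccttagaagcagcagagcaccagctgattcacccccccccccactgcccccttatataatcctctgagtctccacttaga
Irgm1: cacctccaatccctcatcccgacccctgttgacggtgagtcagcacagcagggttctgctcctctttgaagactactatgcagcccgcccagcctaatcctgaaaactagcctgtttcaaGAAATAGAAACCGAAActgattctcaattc
Bst2: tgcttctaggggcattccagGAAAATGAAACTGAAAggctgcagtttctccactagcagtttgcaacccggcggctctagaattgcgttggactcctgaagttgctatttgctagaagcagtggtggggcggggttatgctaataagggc
Gbp3: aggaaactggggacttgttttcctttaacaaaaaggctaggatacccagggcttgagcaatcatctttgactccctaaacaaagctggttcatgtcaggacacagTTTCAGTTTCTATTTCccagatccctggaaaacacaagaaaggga
Irf1: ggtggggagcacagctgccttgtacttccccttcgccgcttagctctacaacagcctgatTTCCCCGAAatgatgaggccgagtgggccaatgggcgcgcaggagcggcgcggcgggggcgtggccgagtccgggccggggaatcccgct

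In the melanoma lines 38 members were read on every array of at least 1 line, and 35 were read on all 17 arrays. DB#2 carried the highest mean of the 5 melanoma lines for 27 of these 38 members, a pattern that 27.2% of all genes read there showed. Every DB#2 array lay above every other melanoma array for 17 members, against 3.02% of all genes: Irf7, Irf9, Usp18, Ddx58, Ifih1, Trim25, Trim30a, Parp9, Ifit3, Bst2, Ifitm3, Gbp3, Irgm1, Igtp, Ifi35, Ifi27 and Xaf1. D, DB#1 and DB#3 all had means below M for 32 members, against 29.3% of all genes. The full order, DB#2 above M and M above the other 3 lines, held for 23 members and for 9.86% of all genes. These patterns were picked after the values were seen and are given as a description.

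**Figure D1:**
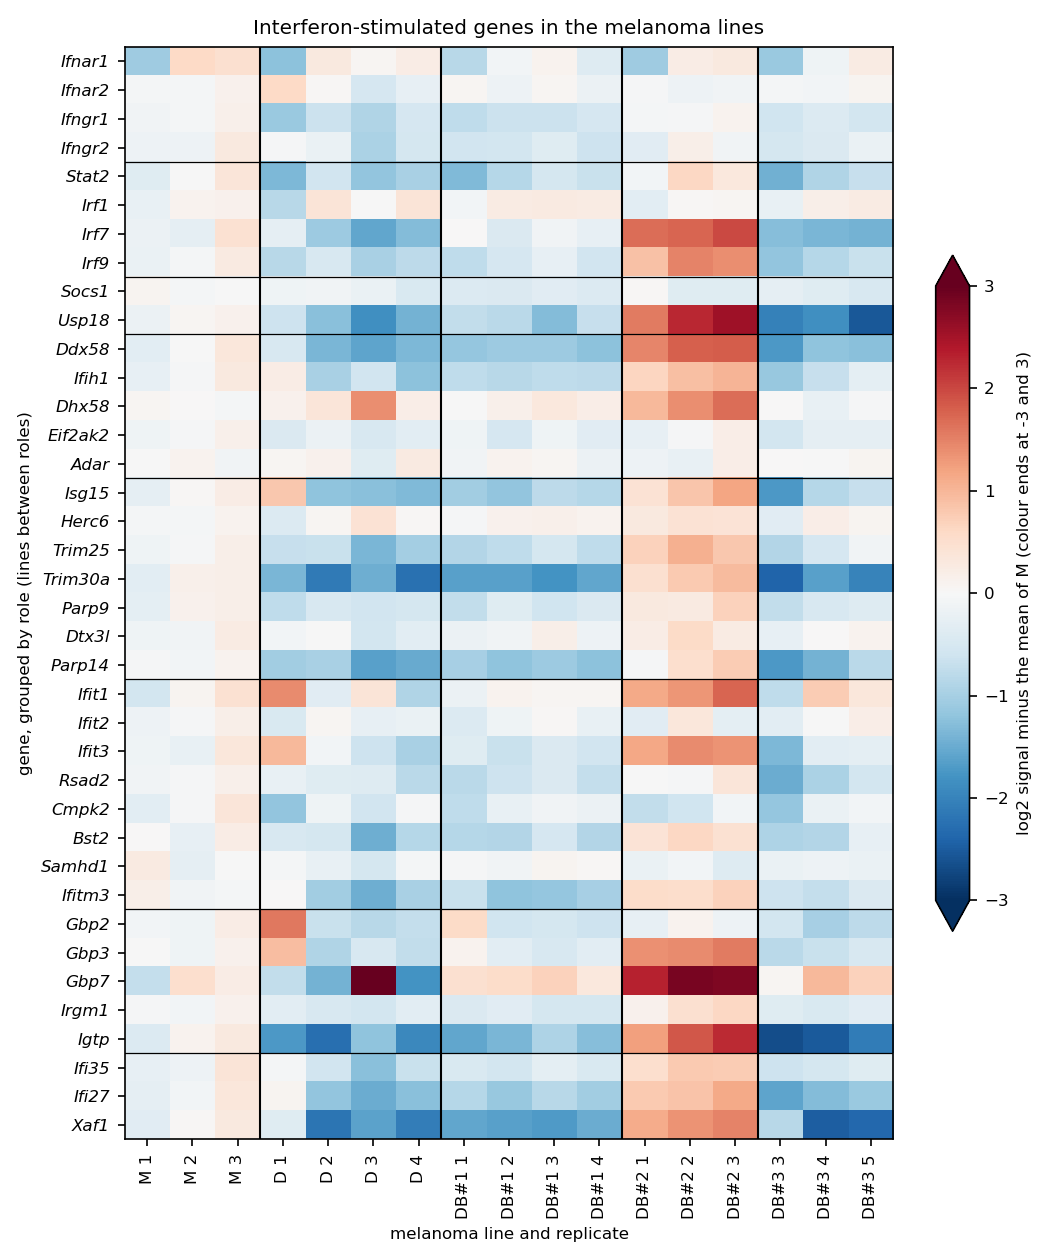
Log2 signal of the 38 members read in a melanoma line (rows, by role) on the 17 melanoma arrays (columns, by line), each less the gene's mean in M, with colours ending at -3 and 3. DB#2 has the highest mean in 27 rows, and D, DB#1 and DB#3 all have means below M in 32.

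Against the parental line, 11 of 37 members tested were lower in D and 0 were higher, where 1.58% of all genes were called lower, 1.38% higher and 2.95% in either direction. A call here is a Benjamini-Hochberg adjusted p under 0.05 in limma. The median difference of the 37 members was -0.48, against -0.01 over all genes tested. DB#1 had 10 of 37 members lower and 0 higher (all genes: 1.64% lower, 2.05% higher, 3.7% called), with a median of -0.51 against 0.04. DB#3 had 11 of 37 lower and 0 higher (all genes: 1.15% lower, 1.61% higher, 2.77% called), with a median of -0.54 against 0.03. DB#2 went the other way, with 9 of 38 members higher and 0 lower (all genes: 2.19% higher, 3.46% called) and a median of 0.46 against 0.02. These 4 comparisons share the 3 M arrays. Among the members called lower, Igtp was not read on every D or DB#3 array, and Usp18 was not read on every DB#3 array. Each was read on every M array, so these calls were tested through M alone and their sizes are approximate. With slide as a block the counts were 18 lower for D, 17 lower for DB#1, 12 higher for DB#2 and 12 lower for DB#3. In a fit of only the arrays compared they were 2 for D, 14 for DB#1 and 6 for DB#3, and without M replicate 3 they were 5, 4 and 7. Within each of the 3 slides all called members kept their direction. The calls came from the same arrays, so this is a description and not a separate check. The arrays of the line and of M did not overlap for 17 of 37 members in D (8.45% of all genes), 22 of 37 in DB#1 (20.1%), 22 of 38 in DB#2 (21.7%) and 25 of 37 in DB#3 (21.2%).

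Setting DB#2 against D, 23 of 38 members were higher and 0 lower (all genes: 3.91% higher, 6.36% called), and the median difference was 1.28 against 0.04 over all genes. Among the 23, Igtp and Gbp7 were read on every DB#2 array but not on every D array, so they were tested through DB#2 alone. Against the mean of DB#1 and DB#3, DB#2 was higher for 24 of 38 and lower for 0 (all genes: 3.73% higher, 7.19% called), with a median of 1.22 against -0.02. Both comparisons share the DB#2 arrays. No member was called between DB#1 and D (37 tested, 1 with an unadjusted p under 0.05, 0.484% of all genes called, 0.39% higher and 0.0939% lower) or between DB#3 and D (36 tested, 4 with an unadjusted p under 0.05, 0.369% of all genes called). Few genes of any kind were called in those pairs. With slide as a block the counts were 27 higher in DB#2 than in D and 25 higher than in the mean of DB#1 and DB#3, and in a fit of only the arrays compared 9 and 25. With the block 0 were called for DB#1 and DB#3 against D. Within slides 1 and 3 all 23 members called between DB#2 and D kept their direction, again a description of the arrays that gave the calls. On slide 2, which holds D replicate 3, 21 did, the exceptions being Dhx58 and Gbp7. The DB#2 arrays did not overlap those of D for 22 of 38 members (12.6% of all genes), or those of DB#1 and DB#3 for 27 of 38 (17.6%). Against D the same held for 0 of 37 members in DB#1 (2.57%) and 2 of 36 in DB#3 (4.34%).

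**Figure D2:**
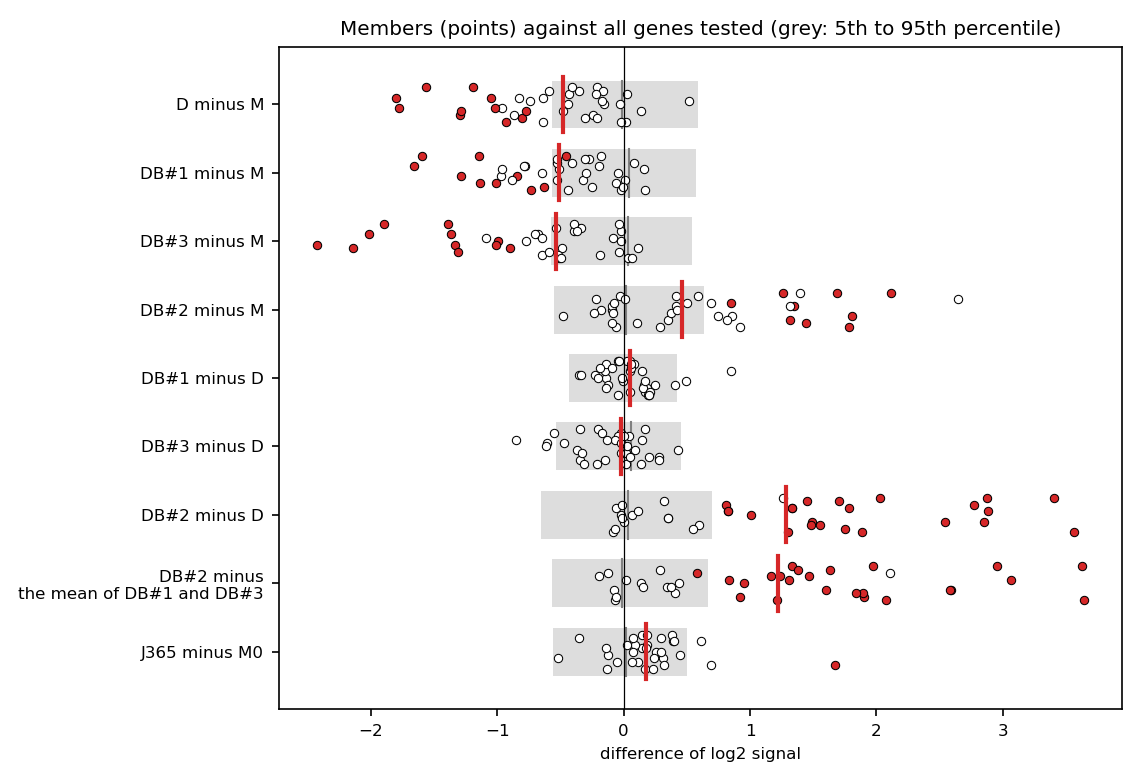
Differences of the members (points, red where called) in 9 comparisons on the log2 scale, with the member median as a red bar and the 5th to 95th percentile of all genes tested in grey. The member medians lie below 0 for D, DB#1 and DB#3 against M and above 0 in the 3 comparisons led by DB#2.

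D replicate 1 and D replicate 3 bear on the D comparisons. Without D replicate 1, 15 members were lower in D than in M, the 11 plus Ifi27, Ifi35, Ifitm3 and Isg15. The Isg15 difference was then -1.26 (adjusted p = 0.00201 in limma), against -0.74 with all 4 arrays. DB#2 against D without that array gained Ifit1 and lost Dhx58 and Gbp7, and DB#1 against D gained a call of Irf7, 1.11 higher in DB#1 (adjusted p = 0.00575 in limma). Without both D replicates 1 and 3, 11 members were lower in D than in M, with Ifi27, Ifitm3 and Isg15 in and Ifngr1, Irf9 and Stat2 out, and 23 were higher in DB#2 than in D. D replicate 1 was the highest of the 4 D arrays for 19 of 38 members and for 37.6% of all genes.

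A second pattern followed the array numbers. In every melanoma line 7 of 38 members (18.4%) were lowest on the line's lowest-numbered array: Ifnar1, Ifngr1, Stat2, Irf1, Herc6, Ifit2 and Cmpk2. Of all genes read there, 7.27% showed it, and 0 members and 4.57% of all genes were highest on that array in every line. Ifnar1 read 0.70 on M replicate 1 against 2.36 and 2.24, 0.53 on D replicate 1 against 1.84 to 2.06, 0.93 on DB#1 replicate 1 against 1.39 to 1.86, and 0.70 on DB#2 replicate 1 against 1.99 and 2.07. The 5 arrays lie on all 3 slides. The part of this in the results was not tested.

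The receptors gave few calls. Of 4 tested, only Ifngr1, the ligand-binding chain for interferon gamma, was called between melanoma lines. Its level was 1.67, 1.71 and 1.93 on the M arrays and 1.72, 1.73 and 1.89 on the DB#2 arrays. D read 0.65, 1.12, 0.86 and 1.26, DB#1 1.02, 1.12, 1.13 and 1.27, and DB#3 1.18, 1.35 and 1.22. The DB#2 arrays lay within the range of M, and no array of the other 3 lines reached it. D was lower than M by 0.80 (SE 0.16, adjusted p = 0.00669 in limma) and DB#1 was lower by 0.63 (SE 0.16, adjusted p = 0.0316), while DB#3 differed by -0.52 (adjusted p = 0.174). Ifnar1, Ifnar2 and Ifngr2 differed from M by -0.53 to -0.02 in the 4 derived lines and were not called.

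The transcription factors split into Irf7, Irf9 and Stat2, which were called in several comparisons, and Irf1, which was called in none. Irf7, the factor that amplifies type I interferon production, read -0.59, -0.70 and 0.04 in M, -0.68, -1.50, -1.98 and -1.71 in D, and 1.26, 1.34 and 1.57 in DB#2. DB#1 read -0.41, -0.84, -0.53 and -0.67, and DB#3 read -1.70, -1.80 and -1.84. DB#2 stood apart from all other melanoma arrays, DB#1 lay within the range of M but for 1 array, and D replicate 1 was inside the M range. DB#2 exceeded M by 1.81 (3.5-fold, SE 0.26, adjusted p = 0.000138), and D and DB#3 were below M by 1.05 and 1.36. A second, dimmer Irf7 probe gave 0.12 for D against M where the brighter gave -1.05, and 1.55 for DB#2 against D where the brighter gave 2.85.

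Irf9, the DNA-binding subunit of the type I complex, read 0.81, 0.96 and 1.29 in M, 0.20, 0.53, 0.04 and 0.24 in D, and 1.91, 2.52 and 2.42 in DB#2. DB#1 read 0.26, 0.51, 0.77 and 0.44 and DB#3 -0.16, 0.16 and 0.36. The lines formed 3 levels without overlap, DB#2 at the top, M between, and D, DB#1 and DB#3 together below. The DB#2 mean was above D by 2.03 (4.09-fold, SE 0.18, adjusted p = 1.84e-07). Stat2, the partner of Irf9, was lower than M by 1.02 in D, 0.84 in DB#1 and 1.01 in DB#3, each called, and its difference of 0.29 between DB#2 and M was not. Irf1, a factor that interferon gamma induces, differed from M by no more than 0.17 in any derived line on the probe in use, and its dimmer probe gave 1.01 for D against M.

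Of the 2 feedback inhibitors, Usp18 was called in most melanoma comparisons and Socs1 in none. Usp18 removes ISG15 from proteins and blocks signalling at Ifnar2. Its level was -1.91, -1.68 and -1.59 in M, -2.35, -2.98, -3.56 and -3.15 in D, and -2.45, -2.53, -3.02 and -2.42 in DB#1. DB#2 read -0.17, 0.53 and 0.81, and DB#3 read -3.76, -3.57 and -4.26. All DB#2 arrays were above M, all M arrays were above D and DB#1, and DB#3 lay lowest, read on 2 of its 3 arrays. DB#2 exceeded M by 2.12 (4.33-fold, SE 0.28, adjusted p = 4.26e-05) and D by 3.40 (10.6-fold, SE 0.26, adjusted p = 2.71e-08). D and DB#3 were below M by 1.29 and 2.14, both called, and the DB#1 difference of -0.88 missed the threshold (adjusted p = 0.0705). Socs1, an inhibitor of JAK kinases, lay between -2.47 and -1.91 on all melanoma arrays and was never called among them.

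**Figure D3:**
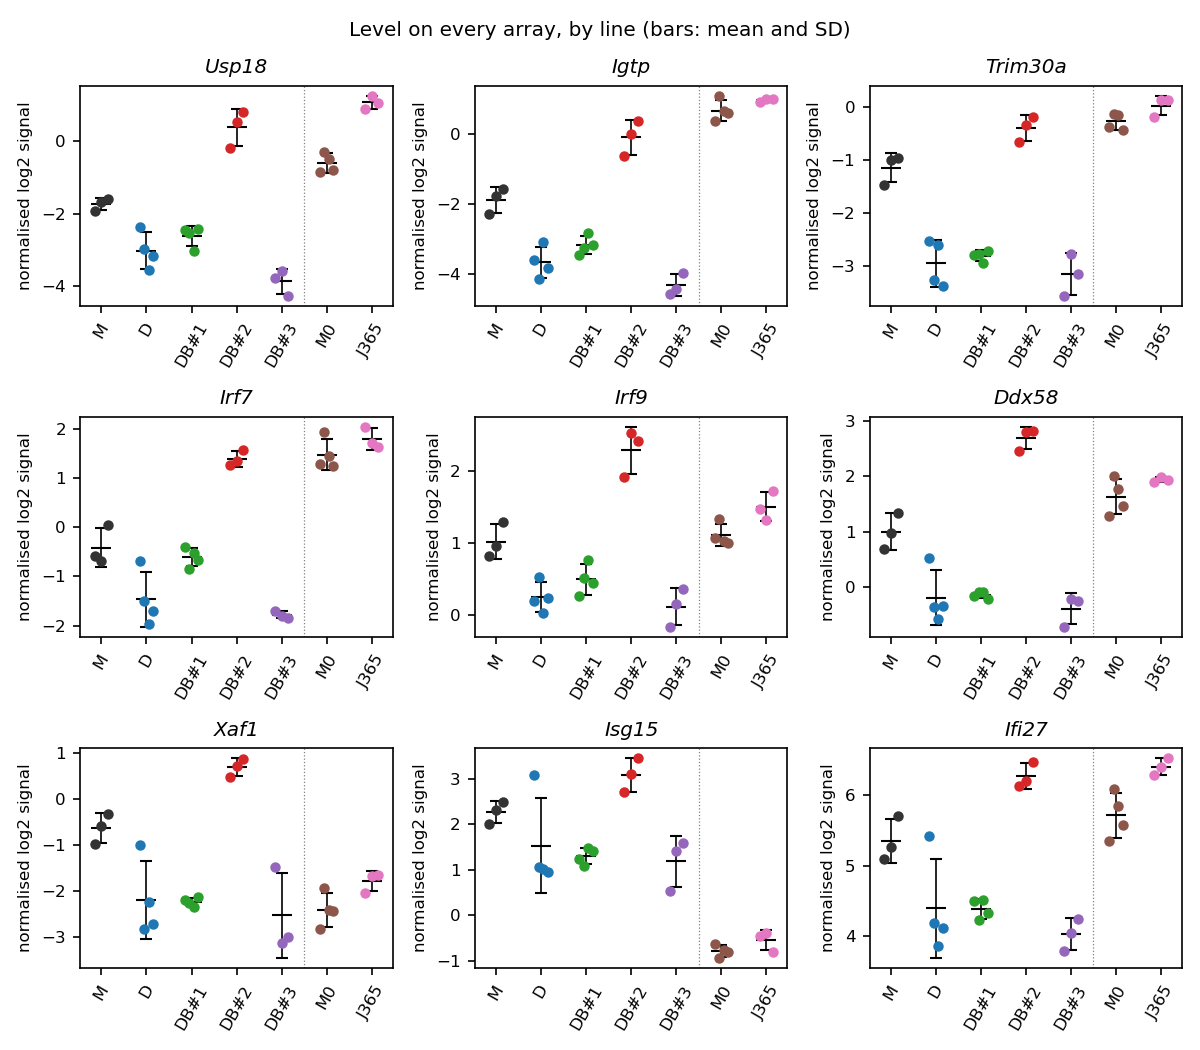
Log2 signal of 9 members on every array of the 7 lines (points) with the line mean and SD. DB#2 lies above the other melanoma lines in each panel except Isg15, where D replicate 1 reaches the same level, and J365 lies clear above M0 in the Usp18 panel.

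Among the RNA sensors, Ddx58, Ifih1 and Dhx58 were higher in DB#2, and Eif2ak2 and Adar were not called in any melanoma comparison. Ddx58 (RIG-I, which detects viral RNA with a free end) read 0.69, 0.98 and 1.34 in M, 0.53, -0.36, -0.57 and -0.34 in D, and -0.15, -0.09, -0.08 and -0.22 in DB#1. DB#2 read 2.46, 2.79 and 2.81, and DB#3 read -0.71, -0.21 and -0.24. Again DB#2 was apart at the top and M lay above the other lines, with D replicate 1 nearest to M. DB#2 exceeded M by 1.69 (3.22-fold, SE 0.24, adjusted p = 0.000106) and D by 2.87 (7.34-fold, SE 0.22, adjusted p = 3.32e-08), and D was below M by 1.19 (SE 0.22, adjusted p = 0.00299). Its 4 probes gave -1.44 to -0.98 for D against M and 2.51 to 2.87 for DB#2 against D.

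Dhx58 (LGP2, a regulator of the RNA sensors) read -2.75, -2.79 and -2.87 in M and -1.84, -1.41 and -1.12 in DB#2, which was 1.35 higher (2.55-fold, adjusted p = 0.00164). D read -2.67, -2.43, -1.42 and -2.61, so D replicate 3 alone reached the DB#2 range. DB#1 lay between -2.81 and -2.50 and DB#3 between -3.03 and -2.80. Ifih1 (MDA5, the sensor of long double-stranded RNA) was higher in DB#2 than in D by 1.49 (adjusted p = 0.00428) and than in M by 0.86 (adjusted p = 0.235). Ifi204, a DNA sensor, was read on every array of no line.

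The group of Isg15 and the ubiquitin-related enzymes held 7 members, of which 3 were lower in D and in DB#1 than in M and 5 were higher in DB#2 than in D. Trim30a, an E3 ligase known as a brake on inflammatory signalling, read -1.46, -0.99 and -0.96 in M, -2.51, -3.26, -2.60 and -3.38 in D, and -2.78, -2.77, -2.93 and -2.70 in DB#1. DB#2 read -0.66, -0.34 and -0.18, and DB#3 read -3.55, -2.76 and -3.14. D, DB#1 and DB#3 overlapped one another and lay wholly below M. D was below M by 1.80 (3.48-fold, SE 0.21, adjusted p = 1.81e-05), DB#1 by 1.66 (adjusted p = 2.95e-05) and DB#3 by 2.01 (adjusted p = 7.33e-06). DB#2 exceeded D by 2.54 (5.83-fold, SE 0.22, adjusted p = 9.39e-08), while its difference of 0.74 from M was not called (adjusted p = 0.0952).

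Parp14, an ADP-ribosyltransferase, read -0.56, -0.59 and -0.41 in M, -1.57, -1.50, -2.14 and -2.04 in D, and -1.53, -1.74, -1.60 and -1.76 in DB#1. DB#3 read -2.24, -1.93 and -1.33, and DB#2 read -0.56, -0.01 and 0.24. M and DB#2 met at -0.56 and every other array lay below them. D was below M by 1.29 (2.45-fold, SE 0.21, adjusted p = 0.000661), and a second Parp14 probe gave -0.23. Parp9 and Dtx3l, which lie beside Parp14 in the genome and act as a complex, moved less: DB#2 exceeded D by 1.01 for Parp9 (adjusted p = 0.00038) and by 0.60 for Dtx3l (adjusted p = 0.137). Trim25, the ligase that activates RIG-I, was lower than M in D by 0.93 and in DB#1 by 0.73, and DB#2 was higher than M by 0.85, each called.

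For Isg15, the ubiquitin-like modifier, D replicate 1 stood apart from its line, as it did for other members such as Gbp2 and Xaf1. M read 2.00, 2.31 and 2.50, DB#2 2.71, 3.09 and 3.45, and D 3.09, 1.07, 1.02 and 0.94. DB#1 read 1.24, 1.09, 1.49 and 1.41 and DB#3 0.55, 1.42 and 1.58. D replicate 1 lay within the DB#2 range, and the other D arrays lay with DB#1 and DB#3. From D to DB#2 the rise was 1.55 (2.94-fold, SE 0.37, adjusted p = 0.0131). Herc6, the mouse ligase for ISG15, was not called in any melanoma comparison.

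Of 8 antiviral effectors tested, 3 were higher in DB#2 than in D and 5 were higher than in the mean of DB#1 and DB#3. Against M, 0 were called in D, 1 lower in DB#1 (Ifitm3), 1 higher in DB#2 (Ifit3) and 1 lower in DB#3 (Rsad2). Ifitm3, which blocks the fusion of viruses with endosomes, read 3.80, 3.52 and 3.58 in M, 2.95, 2.43, 2.48 and 2.63 in DB#1, and 4.17, 4.17 and 4.31 in DB#2. D read 3.63, 2.59, 2.16 and 2.66, and DB#3 read 3.01, 2.92 and 3.19. DB#1 and DB#3 lay below M, and D did so apart from replicate 1. DB#1 was below M by 1.01 (2.01-fold, SE 0.25, adjusted p = 0.021), a call lost under 7 alternatives (adjusted p up to 0.109).

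Ifit3, which binds Ifit1 in a complex on viral RNA, read -1.02, -1.11 and -0.55 in M and 0.28, 0.53 and 0.46 in DB#2, a difference of 1.31 (2.49-fold, SE 0.34, adjusted p = 0.036). D read 0.08, -0.97, -1.50 and -1.85, with replicate 1 above all M arrays. DB#1 lay between -1.56 and -1.26 and DB#3 between -2.23 and -1.17. Rsad2 (viperin) and Cmpk2, neighbours in the genome and enzymes of antiviral nucleotide synthesis, did not move together: DB#2 exceeded the mean of DB#1 and DB#3 by 0.92 for Rsad2 (adjusted p = 0.00152) and differed by -0.08 for Cmpk2 (adjusted p = 0.969). Bst2 (tetherin) was higher in DB#2 than in D by 1.33 (adjusted p = 0.00737). Ifit2 and Samhd1 were not called in any melanoma comparison.

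The group of GTPases, from the GBP and IRG families, included the member with the largest difference between DB#2 and D, Igtp. Igtp, also called Irgm3, read -2.29, -1.77 and -1.58 in M, -3.60, -4.13, -3.09 and -3.82 in D, and -3.44, -3.26, -2.82 and -3.16 in DB#1. DB#2 read -0.64, -0.01 and 0.36, and DB#3 read -4.55, -4.40 and -3.97. The order was DB#2, M, then D and DB#1 together, then DB#3, with D overlapping both DB#1 and DB#3 and no other overlap. Igtp was read on 2 of 4 D arrays and on 0 of 3 DB#3 arrays. It was tested against D because every DB#2 array read it, so the size of that difference is approximate. DB#2 exceeded D by 3.56 (11.8-fold, SE 0.26, adjusted p = 1.06e-08) and M by 1.78 (3.44-fold, SE 0.28, adjusted p = 0.000277). D was below M by 1.78 (SE 0.26, adjusted p = 0.000187), DB#1 was below M by 1.29 (SE 0.26, adjusted p = 0.00387), and DB#3, not well above background, was at least 5.14-fold lower than M.

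Gbp3, a guanylate-binding protein, read -2.05, -2.14 and -1.88 in M and -0.65, -0.61 and -0.48 in DB#2, a difference of 1.45 (2.72-fold, SE 0.33, adjusted p = 0.0142). D read -1.10, -2.94, -2.51 and -2.76, DB#1 -2.50 to -1.93, and DB#3 -2.83 to -2.50. D replicate 1 again lay nearest to DB#2. Gbp2, close to Gbp3 in the genome, was not called in any melanoma comparison, and D replicate 1 read 1.35 where all other melanoma arrays read between -1.22 and 0.35. Gbp7 was read in the melanoma lines on every DB#2 array (-2.77, -2.24 and -2.28), on D replicate 3 (-1.61) and on 1 DB#3 array. It was not well above background on M or DB#1 arrays. DB#2 was at least 3.66-fold higher than M (adjusted p = 0.102), and the call against D (2.77, SE 0.78, adjusted p = 0.037) rested on arrays that overlapped. Irgm1, a regulator of the other IRG proteins, was higher in DB#2 than in D by 0.82 (adjusted p = 0.000136). Gbp5 and Iigp1 were read on every array of no line.

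Of the remaining genes, Xaf1, Ifi27 and Ifi35 were all higher in DB#2 than in D, and Ifi44 was read on every array of no line. Xaf1, which antagonises the apoptosis inhibitor XIAP, read -0.97, -0.59 and -0.33 in M, -1.0, -2.82, -2.24 and -2.71 in D, and -2.19, -2.26, -2.34 and -2.12 in DB#1. DB#2 read 0.48, 0.71 and 0.87, and DB#3 read -1.46, -3.11 and -2.99. D replicate 1 and DB#3 replicate 3 lay well above the other arrays of their lines. The DB#2 level exceeded that of D by 2.88 (7.36-fold, SE 0.38, adjusted p = 3.19e-05), and D was below M by 1.56 (SE 0.38, adjusted p = 0.023). Ifi27, a small membrane protein, read 5.09, 5.27 and 5.70 in M, 5.43, 4.18, 3.85 and 4.11 in D, 4.49, 4.22, 4.52 and 4.32 in DB#1, 6.14, 6.21 and 6.48 in DB#2, and 3.78, 4.04 and 4.24 in DB#3. Here too D replicate 1 lay with M. DB#3 was below M by 1.33 (2.52-fold, SE 0.29, adjusted p = 0.00951).

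**Figure D4:**
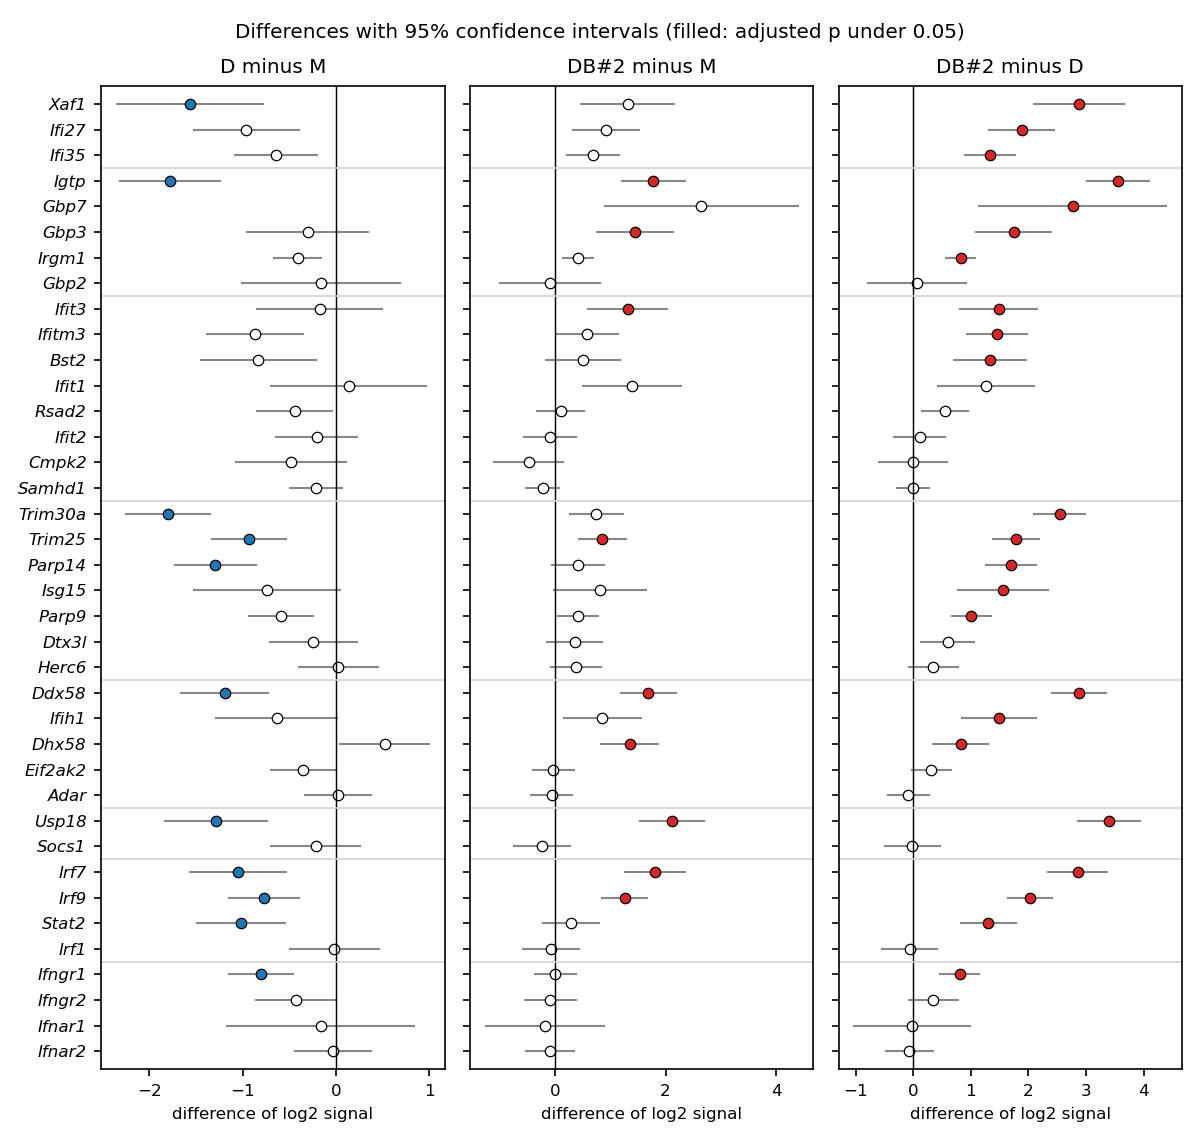
Differences with 95% confidence intervals for the 38 members, by role, for D against M, DB#2 against M and DB#2 against D, with filled points where called. Calls against M lie to the left for D and to the right for DB#2, and Igtp and Usp18 have the largest DB#2 to D differences.

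In the reference promoter windows the ISRE letters occurred for 12 of 18 members that were higher in DB#2 than in D and have an entry (66.7%). They occurred for 5 of 15 tested members that were not called (33.3%). For the GAS letters the counts were 5 of 18 (27.8%) and 7 of 15 (46.7%). The Igtp, Trim30a, Irgm1, Bst2, Gbp3, Ifit3 and Isg15 stretches printed above belong to members called between DB#2 and D, and the Irf1 stretch to one that was not.

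A longer list of 44 interferon-induced genes that are no members was also counted; all-gene shares stand in parentheses. Of those tested, 6 of 29 were lower and 1 higher in D than in M (all genes: 1.58% and 1.38%), 5 of 30 were lower and 1 higher in DB#1 (1.64% and 2.05%), 4 of 30 were lower and 1 higher in DB#3 (1.15% and 1.61%), and 5 of 31 were higher (2.19%) and 0 lower in DB#2. DB#2 exceeded D for 12 of 31 (3.91%) and the mean of DB#1 and DB#3 for 11 of 31 (3.73%), with 0 lower in either. The list's median difference was -0.24 for D against M and 0.48 for DB#2 against D, compared with -0.01 and 0.04 over all genes. The largest differences between DB#2 and D were 3.76 for Phf11d, 3.27 for the ligase gene Trim34a and 3.26 for the GTPase Irgm2. The D means were -5.83 for Phf11d and -4.52 for Trim34a, near background, so the sizes for these genes are approximate. Phf11d was also higher in DB#1 than in D, by 2.33 (adjusted p = 0.0175 in limma). It was the only 1 of 29 called there (all genes: 0.39% higher). Against M, Irgm2 and Trim34a were the leading falls in D (-1.34 and -1.16) and in DB#3 (-1.91 and -1.85). The Trim34a mean was -5.20 in DB#3, also near background, so both of its falls are approximate. Oasl1 was the exception in D, at 2.51 above M.

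Of 38 components of interferon production and signalling, 1 or 0 were called in each direction against M, and the list's median was -0.17 for D against M, compared with -0.01 over all genes. D had 1 of 28 higher (Cgas, the DNA sensor, 0.67) and 1 lower (the phosphatase Ptpn6, -1.05), where 1.38% of all genes were called higher and 1.58% lower, and DB#1, DB#2 and DB#3 had 0. Between DB#2 and D, Ifnlr1, a receptor chain for type III interferon, was higher in DB#2 by 1.17 (adjusted p = 0.00351) and the kinase gene Ikbke by 0.60 (adjusted p = 0.0355), and Cgas was lower in DB#2, with a difference of -0.75 (adjusted p = 0.0124). Against the mean of DB#1 and DB#3, DB#2 was higher for Tlr3 (0.87, adjusted p = 0.0381 in limma), Ikbke (0.73, 0.00441) and Tbk1 (0.59, 0.0185). It was lower there for Cgas (-0.64, adjusted p = 0.0170) and Traf3 (-0.46, 0.0349). The interferon genes on this list were called in none of the melanoma comparisons. Only 28 or 29 components of the 37 with a probe were tested there, so a gene not called may not have been read. The haematopoietic marker list read lower in DB#2 (-4.39 to -4.18) than in M (-4.05 to -3.74). The plasmacytoid dendritic cell list (1.75 to 1.98 against 1.81 to 1.90) and the brain cell list (-2.95 to -2.59 against -2.77 to -2.38) overlapped between DB#2 and M. The plasmacytoid dendritic cell list includes Bst2, itself a member, so it is not independent of the members.

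In the myeloid lines 32 members were tested between J365 and M0, and 1 was higher and 0 lower (all genes: 0.729% higher, 1.46% called). The 1 was Usp18, at 0.90, 1.25 and 1.07 in J365 and -0.84, -0.28, -0.48 and -0.80 in M0. Every J365 array lay above every M0 array, by 1.68 on average (3.19-fold, SE 0.26, adjusted p = 0.00057). The median difference of the 32 members was 0.18, against 0.02 over all genes. The 2 lines did not overlap for 5 of the 32 members (8.47% of all genes). At an unadjusted p under 0.05, 4 members passed, and with slide as a block 2 were called, Usp18 and Irgm1 (0.43). Of the longer lists, Ifi47 (0.86) and the lipopolysaccharide receptor gene Tlr4 (1.17) were higher in J365.

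The difference between D and M was set against that between J365 and M0 in 1 interaction term. Of 39 members tested, 10 had a lower value in the melanoma pair and 0 a higher one (all genes: 0.872% lower, 2.09% called), with a median of -0.42 against 0.00 over all genes. With slide as a block the count was 14. The largest was Usp18, at -2.96 (SE 0.37, adjusted p = 4.2e-05), which was lower in D than in M and higher in J365 than in M0. Xaf1 followed at -2.18 (SE 0.54, adjusted p = 0.0352), Trim30a at -2.10 (SE 0.31, adjusted p = 0.000267) and Igtp at -2.07 (SE 0.37, adjusted p = 0.00206). Except for Usp18, none of these was called between J365 and M0.

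The myeloid and melanoma lines differed in which members they expressed. Between M0 and M, 16 of 39 members were higher and 14 lower, at a background of 30.9% higher, 27.7% lower and 58.6% called of all genes, and their median was 0.09 against 0.13 for all genes. The arrays of the 2 lines did not overlap for 28 of 39 members (57.9% of all genes). In all 7 lines 28 members were read on every array. Another 7, Ifih1, Ifit1, Ifit3, Rsad2, Cmpk2, Gbp2 and Gbp3, were read on all melanoma arrays and on 0 of the 7 myeloid arrays. Ifitm1, a plasma-membrane relative of Ifitm3, was the reverse, read on all myeloid arrays and on 0 melanoma arrays. Its level was 7.20 to 8.32 in M0 and 7.66 to 7.82 in J365, against -6.88 to -5.34 in the melanoma lines, a difference of at least 4554-fold between M0 and M.

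Members below background in M0 have only a bound there. Gbp2 was at least 14.6-fold lower than in M, Rsad2 at least 12.5-fold, Ifit3 at least 9.23-fold, Ifih1 at least 8.74-fold, Cmpk2 at least 7.49-fold, Gbp3 at least 4.21-fold and Ifit1 at least 1.80-fold. Rsad2 read -0.55, -0.50 and -0.31 in M and -6.38 to -6.11 in M0, and Cmpk2 read -1.51, -1.23 and -0.84 in M and -6.24 to -6.03 in M0. Gbp2 read -0.31, -0.36 and -0.01 in M and -6.47 to -6.11 in M0. Each of these genes was read on every M array and on no myeloid array. Isg15 was read in both cell types and was lower in M0 (-0.62, -0.93, -0.75 and -0.81) than in M by 3.05 (8.27-fold, SE 0.38, adjusted p = 5.91e-07).

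Other members were higher in the myeloid lines. Socs1 read 2.29, 3.66, 3.52 and 3.37 in M0 and 3.1, 3.57 and 3.50 in J365, against -2.04 to -1.91 in M, a difference of 5.19 between M0 and M (36.6-fold, SE 0.23, adjusted p = 3.79e-14). Igtp read 0.36, 1.08, 0.64 and 0.59 in M0, 2.55 above M (5.85-fold, adjusted p = 3.68e-08). Irf7 read 1.27, 1.93, 1.45 and 1.24 in M0, 1.89 above M (3.7-fold, adjusted p = 1.3e-06). Ifitm3 read 4.92, 5.75, 5.51 and 5.08 in M0, 1.69 above M (3.22-fold, adjusted p = 6.79e-06). For these 4 genes no M0 array overlapped an M array. Gbp7 (-2.93, -1.67, -1.78 and -1.95 in M0) was at least 4.65-fold higher than in M, where it was not well above background. Ifnar1, Ifnar2 and Ifngr1 were not called, and dimmer Ifnar1 probes gave -1.45 and -1.52 where the brightest gave 0.42.

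**Figure D5:**
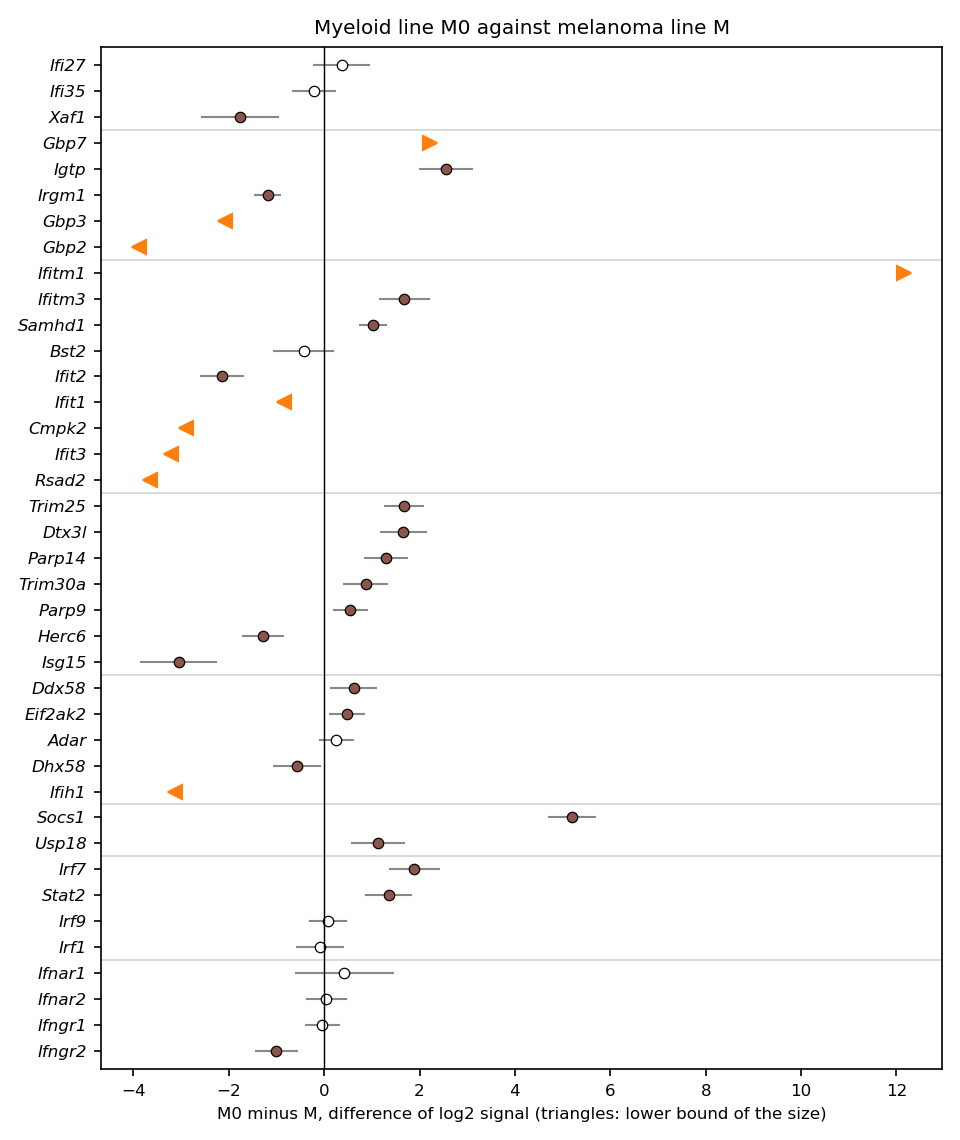
Differences between M0 and M on the log2 scale for the members tested, by role, with 95% confidence intervals (circles) or, where 1 line is not above background, the bound nearest to 0 (triangles). Members lie on both sides of 0, from Ifitm1 at the far right to Gbp2, Rsad2 and Ifit3 at the left.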

How the data were processed

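RNA of each sample was hybridised in 1 colour (Cy3) to 24 Agilent mouse arrays on 3 slides, each slide holding every line. The authors extracted spot intensity with Agilent Feature Extraction 10.7.3.1, per the submitters' processing notes, and deposited background-subtracted intensity values (the processed signal), which the series' value table repeats. From these, log2 intensity less the array's 75th percentile was computed here, control spots and outlier spots were left out, and spots of a probe were averaged. Symbols came from the probe's RefSeq accession (32994 of 35886 matched), and the brightest probe stood for a gene. limma 3.58.1 in R 4.3.3 (lmFit, eBayes) was fitted on all 24 arrays with 1 term per line. A gene was tested where well above background on every array of at least 1 line compared, and p-values were adjusted over all genes tested (Benjamini-Hochberg, threshold 0.05). The study's methods name no test for the expression arrays. The pipeline was tested on simulated data. The number of arrays (3 to 4 per line) limits the precision. A bound sets the bright line's mean over the dim line's, the latter taken per array as the higher of the probe's own signal and the lowest signal of a probe well above background. Alternatives were other scaling, background correction (normexp on the median signal, offset 50), dim-probe filters, probe averaging, slide or replicate number as a block, smaller fits and leaving out arrays. The members and lists were chosen with earlier results of these data known. Values on every array are given for up to 6 called members with the largest rise and 6 with the largest fall per comparison and for those read in 1 line only, and up to 3 per direction are named from other lists. A few further members (Irf9, Ifngr1, Ifit3 and Isg15 among them) were given in full after their values were seen. Of the other lists, 1 item is not reported here.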

Additional observations from a re-analysis of the deposited data

Results flagged for a closer look

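In lines with 4 arrays, 9 of the 129 line and member pairs had 1 array far from the others by Dixon's test, where chance flags about 1 in 20 (6.45 pairs). Of these, 3 were in D replicate 1: Isg15 at 3.09 and Gbp2 at 1.35, above the other D arrays, and Ifnar1 at 0.53, below them. D replicate 3 read -0.53 for Ifi44, which the other D arrays held at -5.72 or lower. In DB#1, replicate 1 read 1.92 for Irf1 and 0.35 for Gbp2, and replicate 3 read -3.02 for Usp18 and 3.76 for Bst2. M0 replicate 1 read -6.07 for Iigp1, which was not well above background on that line.

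The D to M difference was lower than the J365 to M0 difference for 10 members, by the interaction term in limma. The values were -2.96 for Usp18 (adjusted p = 4.2e-05), -2.18 for Xaf1 (0.0352), -2.10 for Trim30a (0.000267), -2.07 for Igtp (0.00206), -1.65 for Ifi27 (0.0239), -1.50 for Ddx58 (0.0112), -1.37 for Irf7 (0.0443), -1.32 for Parp14 (0.0185), -1.17 for Irf9 (0.0141) and -0.86 for Irgm1 (0.00688).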

How the results depend on the processing

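For the 55 differences named as the largest called per comparison, 0 of 1001 values under the alternatives changed direction and 89 lost the call. Other called members were not followed in this count, and the dimmer Irf7 probe (0.12 for D against M) and slide 2 alone (Dhx58 and Gbp7) did turn direction. Calls were lost most often for Xaf1 (interaction 15 settings, D against M 8), Gbp7 in DB#2 against D (13), Ifi27 in the interaction (9, adjusted p up to 0.19) and Ifitm3 in DB#1 against M (7). Counts of members called that moved by over 1.5 times were, for D minus M, 7 with no scaling, 7 with the mean of probes, 18 with slide as a block and 2 in a fit of only the compared arrays. For DB#1 minus M they were 5 with no filter, 17 with the slide block and 6 with the prior over all genes, and for DB#2 minus M 16 with no scaling, which moved the median of all genes by 0.25. DB#3 minus M gave 7 with the mean of probes and 6 in the smaller fit, DB#2 minus D 9 in the smaller fit, J365 minus M0 2 with the slide block, and the interaction 5 with no filter and 5 in the smaller fit. DB#1 minus D gave 1 without D replicates 1 and 3. Leaving out 1 array gave ranges of 5 to 15 (D minus M), 4 to 7 (DB#1 minus M), 6 to 9 (DB#2 minus M), 7 to 11 (DB#3 minus M), 0 to 1 (DB#1 minus D), 20 to 23 (DB#2 minus D), 0 to 0 (DB#3 minus D), 22 to 24 (DB#2 minus the mean of DB#1 and DB#3), 1 to 1 (J365 minus M0), 4 to 14 (interaction) and 26 to 30 (M0 minus M). Without M replicate 3 the counts were 5 (D minus M), 4 (DB#1 minus M), 7 (DB#3 minus M) and 4 (interaction). DB#1 minus M gave 4 without M replicate 2 and 6 without DB#1 replicate 1, 2 or 4, DB#3 minus M 7 without DB#3 replicate 3, and the interaction 6 without J365 replicate 3. The causes were not tested, except that the smaller fits hold fewer arrays. Same-numbered arrays of different lines deviated together little on average (mean correlation 0.10 over 56 pairs), but single pairs ran from -0.80 to 0.91. M replicate 1 and DB#2 replicate 1, on different slides, gave 0.85, and replicate 2 of the same lines gave -0.55. The mean therefore does not settle whether the replicate numbers pair the arrays. Arrays of different lines on the same slide deviated together (mean 0.49 over 81 pairs, against -0.22 on other slides), and the reported fit has no term for slide. With the replicate block the counts were 11 for D minus M, 8 for DB#1 minus M, 8 for DB#2 minus M, 8 for DB#3 minus M, 22 for DB#2 minus D, 22 for DB#2 minus the mean, 8 for the interaction and 1 for J365 minus M0. Dim probes near background, such as those of Gbp7 and Usp18 in DB#3, are the least precise.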
